A study of Mus musculus with 12 samples.

Results

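The genes described here encode the working parts of motile cilia in the mouse lung: the dynein motors, the radial spokes, the central apparatus, the complexes that space and couple the motors, the tektins, and Foxj1, the transcription factor of the multiciliated cell. They were chosen by name, as 36 gene symbols looked up in the deposited count table. Of the 36 symbols, 34 are among the 55487 genes of the table, and all 34 passed the filter on low counts that left 18407 genes for testing. The other symbols, Dnai1 and Dnai2, name intermediate chains of the outer dynein arm whose rows carry the older symbols Dnaic1 and Dnaic2. Their values are given beside the members and are not counted with them.

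Whole lungs of C57BL/6NCr mice were measured by poly-A selected RNA sequencing in 4 age groups, 6M, 12M, 20M and 30M, where M stands for months, to find transcripts that differ with age. Each age had 3 libraries, written here as age and replicate number (20M_221), with 12152066 to 15058628 counts each. The labels name no treatment, no altered genotype and no sex, so the groups differ in age alone as far as they say. They do not say that each library came from a separate animal, and p-values therefore measure the spread between these libraries, which may be technical.

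A motile cilium is built on a ring of microtubule doublets around a central pair. Dynein arms on each doublet walk along the next, the regulatory complex and the radial spokes turn that sliding into a beat, and in the airway the beating of multiciliated cells moves mucus out of the lung. Loss of many of these proteins in patients causes primary ciliary dyskinesia, a disease of poor airway clearance. Foxj1, together with transcription factors of the RFX family, switches on this set of genes late in the differentiation of the multiciliated cell.

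RFX proteins bind a palindrome whose core is GTTGCC, or GGCAAC on the other strand, and forkhead factors such as Foxj1 bind variants of GTAAACA. RefSeq promoter windows on GRCm38.p6, which run from 250 bases before to 50 bases after a listed start, were found for 26 of the 34 members. Of these, 12 (46.2%) held GTTGCC on either strand, against 14.1% of the 27025 genes with a window. The longer GTTGCCA, which contains GTTGCC, was in 6 members (23.1%) against 5.02% of genes. GTAAACA was in 1 member, Cfap43 (3.85%), against 4.05% of genes, and no member held both motifs (0.566% of genes did). A GTTGCC match lay wholly within the 40 bases before the start in 7 of 26 members (26.9%) and in 2.31% of genes. This narrower window was chosen after the positions were seen, and the 7 sequences are shown because they carry that closeness to the start. Each runs 5′ to 3′ on the gene's strand over the 100 bases that end at the base before the listed start, with capitals marking GTTGCC or GGCAAC.

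Tekt2: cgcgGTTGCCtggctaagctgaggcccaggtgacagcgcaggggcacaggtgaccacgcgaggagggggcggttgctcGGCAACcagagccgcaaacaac
Drc1: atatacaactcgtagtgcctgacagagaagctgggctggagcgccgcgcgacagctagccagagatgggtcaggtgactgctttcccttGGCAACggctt
Dnah10: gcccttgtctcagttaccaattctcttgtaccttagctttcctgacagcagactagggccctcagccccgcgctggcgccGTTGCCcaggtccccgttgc
Ccdc113: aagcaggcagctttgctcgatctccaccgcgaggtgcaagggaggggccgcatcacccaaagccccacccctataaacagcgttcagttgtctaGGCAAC
Hydin: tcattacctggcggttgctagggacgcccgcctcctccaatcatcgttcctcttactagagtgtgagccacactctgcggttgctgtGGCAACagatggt
Tekt1: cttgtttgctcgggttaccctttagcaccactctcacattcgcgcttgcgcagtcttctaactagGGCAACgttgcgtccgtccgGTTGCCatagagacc
Cfap44: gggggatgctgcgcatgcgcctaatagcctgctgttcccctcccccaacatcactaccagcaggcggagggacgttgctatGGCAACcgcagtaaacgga

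The windows lie at chr4:126325689-126325788 (minus strand) for Tekt2, chr5:30281293-30281392 (plus) for Drc1 and chr5:124724985-124725084 (plus) for Dnah10. Those of Ccdc113 and Hydin are at chr8:95534000-95534099 and chr8:110266877-110266976, both on the plus strand. Tekt1 has chr11:72361883-72361982 (minus) and Cfap44 has chr16:44394699-44394798 (plus). In GENCODE M21 the first exons of Drc1, Ccdc113 and Cfap44 begin inside the ends of these windows, an exon of 4930404A12Rik reaches into that of Dnah10, and one of Gm26832 into that of Hydin. The count table places Tekt1 at chr11:72344722-72362442, so the Tekt1 window lies inside the gene, though in no M21 exon. A match of letters is a description and shows no binding. The 12 members with GTTGCC in the whole window and the 14 without are set side by side with no test: their median log2 changes in the counts described next were -0.32 and -0.31 at 30M against 6M, and 0.25 and 0.33 at 20M against 6M. In the library 20M_221 their median log2 CPM above the 6M mean was 0.48 and 0.75.

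The levels of the members spanned a wide range. The mean over the 12 libraries was set per kilobase of exon, with length taken over all annotated exons of a gene. The ranks depend on that length. Highest was Tppp3, a tubulin-binding protein abundant in ciliated cells, at 273 counts per 1000000 counts (CPM) per kb. Foxj1 followed at 58.4, the spoke head protein Rsph1 at 39.8, Ccdc113 at 21.4, Tekt1 at 19.1 and Rsph9 at 15.7 CPM per kb. The lowest were the inner arm heavy chains Dnah7a at 0.579 and Dnah7b at 0.439 CPM per kb, which are close paralogs. Their values are given as uncertain because the treatment of reads that match both genes is not known here. In plain CPM Dnah7b was above Dnah7a, at 8.76 and 7.39, with exon lengths of 19980 and 12767 bases. Dynein heavy chains are long transcripts, and all 11 of them lay at rank 18 or lower of the 34 on this scale. In plain CPM the median member stood at 29.5, against 18.7 for all tested genes. Counts of single members ran from 66 to 8055 per library.

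No member was called at 30M against 6M by edgeR's quasi-likelihood test, where called means a Benjamini-Hochberg adjusted p under 0.05 over all tested genes. Of the 34 genes, 32 had a log2 change below 0 (49.5% of all tested genes did), and their median was -0.29 against 0.00284 over all tested genes, or 0.819-fold. The test called 1.96% of all genes in this comparison. At an unadjusted p under 0.05 it held 4 members, all lower (3.57% of all genes), namely Tekt2, Dnah5, Tppp3 and Dnah3. DESeq2 called 1 member, Tekt2, and limma voom called 0 (4.1% and 3.23% of all genes). In 11 of 34 members every 30M library was below every 6M library (8.66% of all genes), and in none was every one above (9.89%). Whole lung was measured, so fewer multiciliated cells and less of these transcripts per cell cannot be told apart. Without 30M_218 the median change was -0.19, with 28 members lower.

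**Figure D1:**
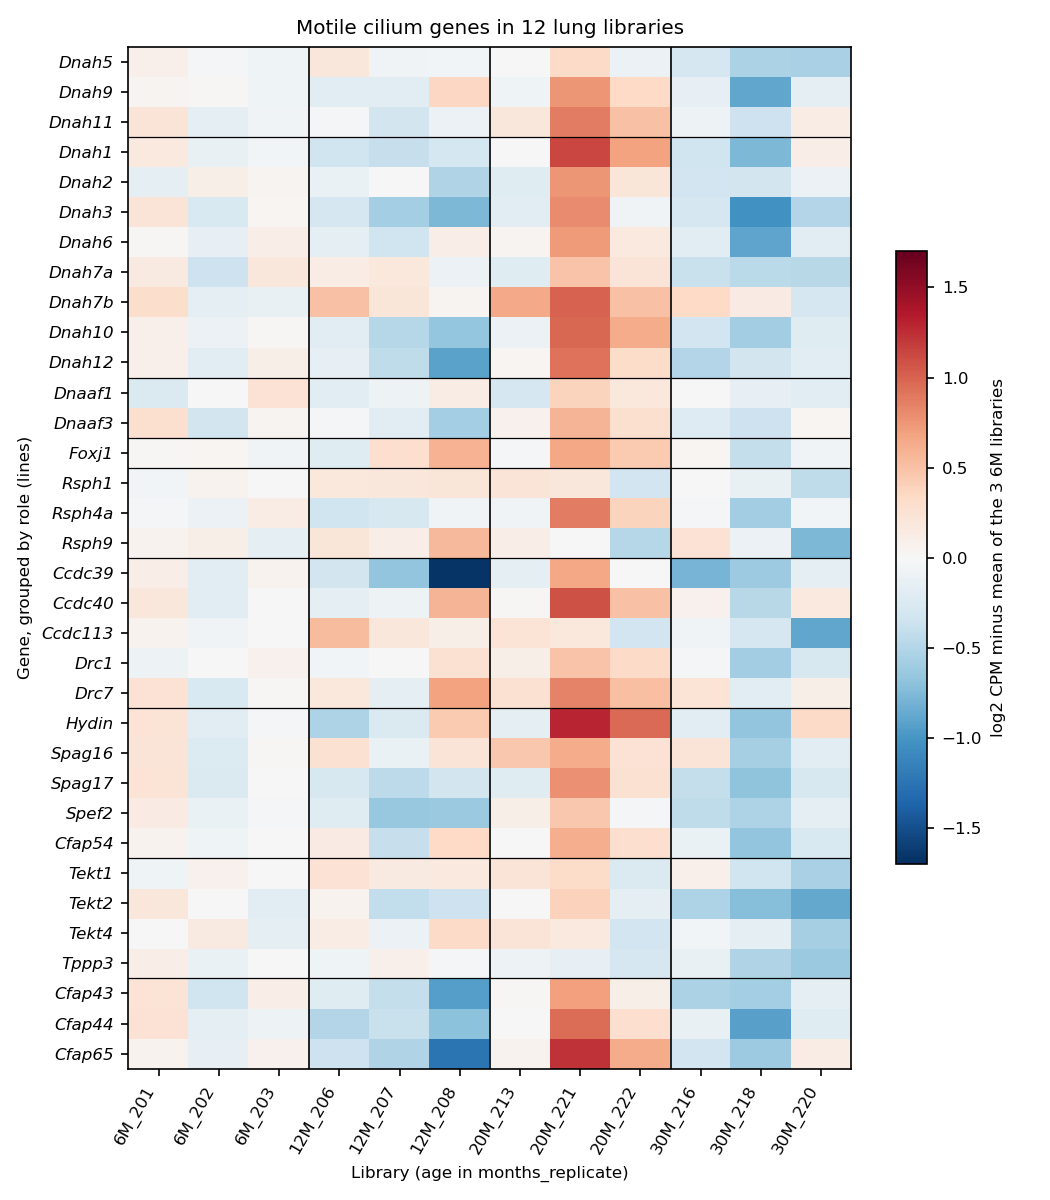
Heat map of the 34 motile cilium genes (rows, grouped by role) in the 12 libraries (columns, grouped by age), coloured by log2 CPM minus the mean of the 3 6M libraries. 20M_221 is the highest library for 29 genes, and 30M_218 the lowest for 14.

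The lowest of the 12 libraries was a 30M library for 24 of 34 members, against 30.8% of all tested genes, and in none of the 34 was the highest. All 3 libraries at 30M lay below all 9 younger ones for 3 members, Dnah5, Dnah7a and Tekt2, against 0.685% of tested genes.

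Tekt2 encodes a tektin, a filament protein inside the microtubule doublets. Tekt2 (ENSMUSG00000028845) lies at chr4:126322121-126325688 on the minus strand of GRCm38. It stood at 23.3, 20.3 and 17.8 CPM in the 6M libraries, at 21.1, 15.2 and 15.9 at 12M, at 20.3, 26.7 and 18.1 at 20M, and at 14.1, 12.3 and 11.1 at 30M. The 3 values at 30M were the 3 lowest of all. The means were 20.5 ± 2.75 CPM at 6M and 12.5 ± 1.54 at 30M (SD, n = 3), a log2 change of -0.71 ± 0.20 (SE). Its adjusted p in edgeR was 0.0972, the smallest of any member at 30M against 6M, and it ran from 0.0287 with DESeq2 to 0.303 over the alternatives. The other tektins, Tekt1 and Tekt4, both had log2 changes of -0.25, and the difference between tektins was not tested. Its promoter window above holds a pair of GTTGCC matches, as does that of Tekt1, which lies inside the span of Tekt1. An exon of Gm12945 overlaps Tekt2 on the other strand.

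Tppp3 (ENSMUSG00000014846) lies at chr8:105467493-105471526 on the minus strand. It was at 600, 511 and 553 CPM at 6M, 528, 587 and 548 at 12M, 522, 504 and 455 at 20M, and 508, 387 and 356 at 30M. The 30M libraries lay below all of those at 6M and 12M and overlapped with 20M. The log2 change at 30M against 6M was -0.41 ± 0.16 (SE), with an adjusted p of 0.284 in edgeR. On the slope over months the log2 change was -0.0180 ± 0.00597 per month (adjusted p = 0.147 in edgeR), the smallest slope p of the members. On the slope edgeR called 0 members (2.68% of all genes) and held 3 at an unadjusted p under 0.05, all lower (4.63%). DESeq2 called 1, Tppp3 (4.91%), and limma voom called 0 (3.18%).

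Outer dynein arms carry the heavy chains Dnah5, Dnah9 and Dnah11, and all 3 were lower at 30M than at 6M, with log2 changes between -0.45 and -0.10. Dnah5, the gene mutated most often in outer arm defects, was singled out after its values were seen. It was at 81.9, 75.8 and 73.2 CPM at 6M, 87.95, 73.6 and 74.7 at 12M, 76.3, 96.0 and 71.8 at 20M, and 63.2, 53.1 and 52.4 at 30M. The ranges at 6M, 12M and 20M overlapped one another, and the 30M range lay below all of them. The log2 change at 30M against 6M was -0.45 ± 0.14 (SE, adjusted p = 0.159 in edgeR, 0.0776 to 0.392 over the alternatives). Dnaic1 and Dnaic2, the intermediate chains of the same arm, had log2 changes of -0.26 ± 0.20 and -0.18 ± 0.17 in that comparison.

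Inner dynein arms hold the 8 heavy chains Dnah1, Dnah2, Dnah3, Dnah6, Dnah7a, Dnah7b, Dnah10 and Dnah12. At 30M against 6M 7 of the 8 had a log2 change below 0, with a median of -0.35. The exception was Dnah7b at 0.07 ± 0.24, which was -0.020 without 6M_202, -0.00153 without 6M_203 and -0.089 without 30M_216. Dnah7b (ENSMUSG00000041144) lies at chr1:46066315-46373550 on the plus strand. Its values were 8.73, 6.27 and 6.47 CPM at 6M, 10.1, 8.17 and 7.35 at 12M, 11.2, 14.3 and 10.0 at 20M, and 9.03, 7.79 and 5.75 at 30M, so that every 20M library was above every 6M and 30M library. Dnah3 had the largest difference of the inner arm chains, -0.59 ± 0.26 (adjusted p = 0.418 in edgeR).

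The largest values of most members were at 20M. At 20M against 6M 32 of the 34 log2 changes were above 0 (54.6% of all tested genes), with a median of 0.32 against 0.03 over all tested genes. edgeR called 0 members (0.0163% of all genes called) and held 9 at an unadjusted p under 0.05, all higher (4.93% of all genes). DESeq2 called 0 (0.305% of all genes) and limma voom with quality weights called 10 (4.22%). In 4 members, Dnah7b, Drc1, Drc7 and Spag16, every 20M library was above every 6M library (7.77% of all genes). Against 12M, 28 of 34 were higher at 20M (52.5% of all genes), with a median of 0.45. edgeR called 0 (no gene of the table was called), held 15 at an unadjusted p under 0.05, all higher (6.7% of all genes), DESeq2 called 1, Cfap65 (0.0623% of all genes), and voom called 0. Every 20M library was above every 12M library for 13 members (7.59% of all genes) and below it for 1, Tppp3 (7.42%).

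**Figure D2:**
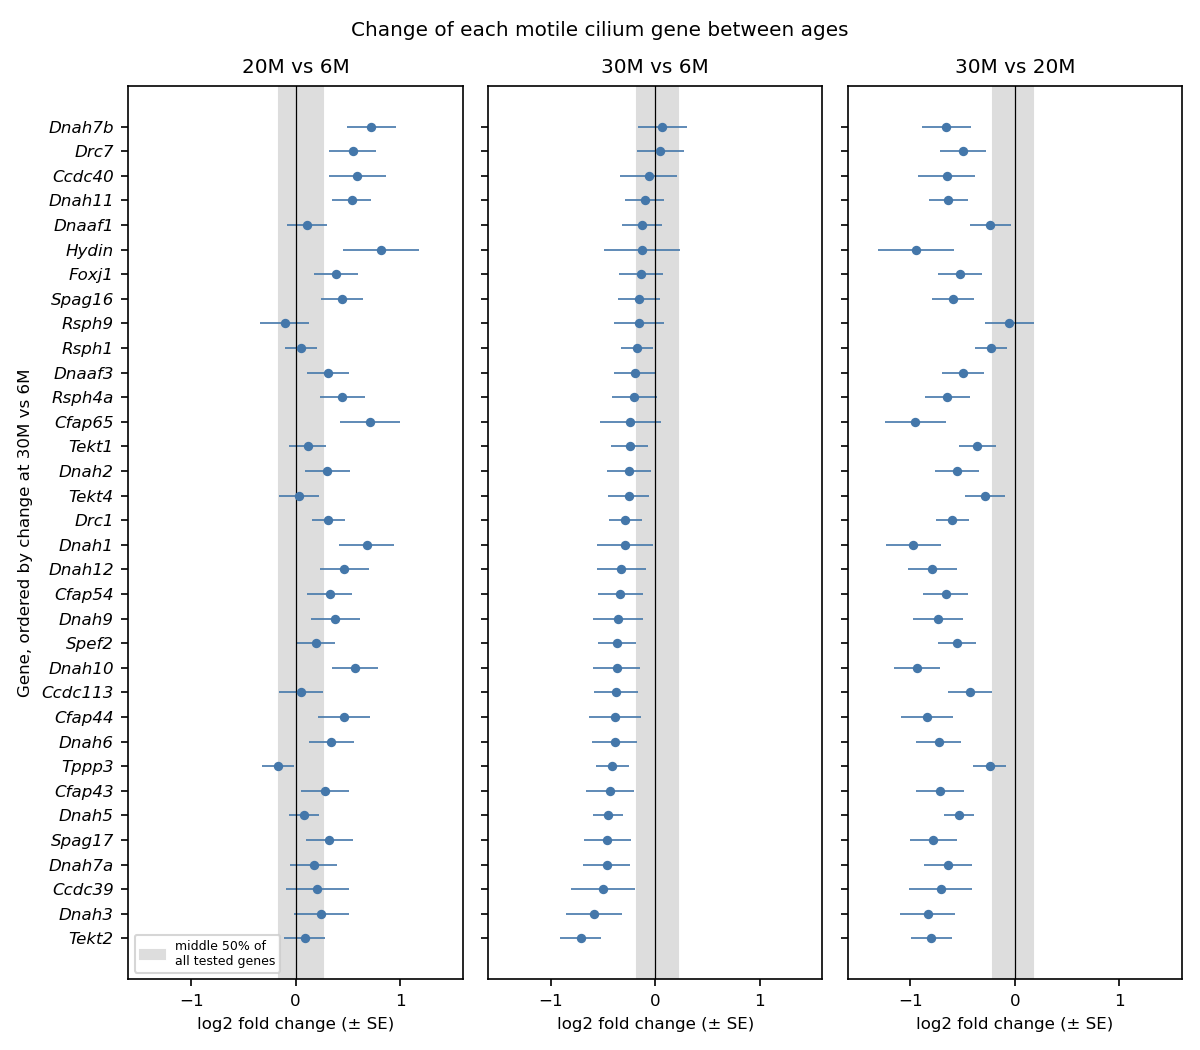
Log2 change with its SE for each of the 34 genes (rows) in 3 comparisons, 20M with 6M, 30M with 6M, and 30M with 20M, with the middle 50% of all tested genes shaded. At 30M against 20M all 34 points lie below 0, and no gene passed an adjusted p of 0.05 in edgeR.

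From 20M to 30M all 34 members had log2 changes below 0 (52.2% of all tested genes), from -0.97 to -0.05, with a median of -0.64 against -0.01 over all genes. edgeR called 0 (0.212% of all genes called), and 27 had an unadjusted p under 0.05, all lower (3.75% of all genes). The smallest adjusted p was 0.133, for Dnah10. DESeq2 called 4 members, Dnah1, Dnah5, Dnah10 and Tekt2, and limma voom called 3, Dnah1, Dnah10 and Cfap65 (1.84% and 1.15% of all genes). No overlap between the libraries of the ages, with 30M below, was seen for 19 members (5.16% of all genes). Without 20M_221, 20M_222 and 30M_220 the median was -0.37, with 33 members lower, and without 20M_221 alone it was -0.45. The comparisons with 20M share its 3 libraries, so they are not separate evidence.

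Across all 4 ages the joint test of edgeR called 0 members (1.11% of all genes called) and held 17 at an unadjusted p under 0.05 (11.2% of all genes). DESeq2 called 6 (4.29% of all genes) and limma voom called 23 (9.01%). The 6 genes with the smallest p in edgeR were Dnah10, Cfap65, Dnah1, Cfap44, Dnah12 and Tekt2, with adjusted p from 0.0981 to 0.191, and the same 6 were those called by DESeq2.

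Dnah10 (ENSMUSG00000038011) lies at chr5:124725085-124834308 on the plus strand and encodes a heavy chain of an inner arm. It stood at 57.3, 50.3 and 54.5 CPM at 6M, 47.6, 38.5 and 34.2 at 12M, 50.4, 106 and 83.7 at 20M, and 42.9, 35.8 and 46.7 at 30M. Every 12M and 30M library was below every 6M and 20M library, while 20M_213 sat at the level of 6M. The log2 change was 0.996 ± 0.22 at 20M against 12M and -0.94 ± 0.22 at 30M against 20M (SE), with adjusted p of 0.429 and 0.133 in edgeR. Without 20M_221, 20M_222 and 30M_220 these were 0.33 and -0.35. At 30M against 6M the log2 change was -0.37 ± 0.22 (adjusted p = 0.609 in edgeR).

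Dnah1 and Dnah12, also of the inner arms, had the same order of ages. Dnah1 (ENSMUSG00000019027) lies at chr14:31260375-31323896 on the minus strand and Dnah12 (ENSMUSG00000021879) lies at chr14:26693274-26891703 on the plus strand. Dnah1 was at 21.5, 17.4 and 18.5 CPM at 6M, 15.02, 14.5 and 15.5 at 12M, 18.9, 42.1 and 30.8 at 20M, and 15.1, 11.2 and 20.6 at 30M. Dnah12 was at 24.9, 20.8 and 25.2 CPM at 6M, 21.4, 17.4 and 12.5 at 12M, 24.1, 44.7 and 29.2 at 20M, and 16.7, 19.0 and 20.9 at 30M. For both, 20M_221 was the highest library and 20M_213 lay within the range of 6M. The log2 changes at 30M against 20M were -0.97 ± 0.27 for Dnah1 and -0.79 ± 0.24 for Dnah12 (SE, adjusted p = 0.200 and 0.253 in edgeR). Without 20M_221 they were -0.67 and -0.50, and without 20M_221, 20M_222 and 30M_220 they were -0.52 and -0.42.

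Cfap65 is a protein of the axoneme known mostly from the sperm flagellum. Cfap65 (ENSMUSG00000047021) lies at chr1:74902071-74935599 on the minus strand. It had 96.7, 84.1 and 96.8 CPM at 6M, 72.1, 64.5 and 38.9 at 12M, 96.0, 216.1 and 143 at 20M, and 73.6, 60.4 and 101 at 30M. All 12M libraries were below all at 6M and 20M, and 30M overlapped with the 3 younger ages. Its log2 change at 20M against 12M, 1.37 ± 0.29 (SE), was the largest of the members in any comparison, with an adjusted p of 0.429 in edgeR and 0.0141 in DESeq2. Without 20M_221, 20M_222 and 30M_220 it was 0.71.

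Cfap44 (ENSMUSG00000071550) lies at chr16:44394796-44482428 on the plus strand, and with Cfap43 its product tethers an inner arm dynein to its doublet. It had 40.6, 30.5 and 32.3 CPM at 6M, 24.3, 26.4 and 21.03 at 12M, 34.2, 66.01 and 41.9 at 20M, and 31.4, 18.0 and 29.7 at 30M. The 12M and 30M libraries were below all those at 20M, and those at 12M were also below 6M. The log2 change at 30M against 20M was -0.84 ± 0.25 (SE, adjusted p = 0.251 in edgeR). It was -0.53 without 20M_221 and -0.46 without 20M_221, 20M_222 and 30M_220. Cfap43, Cfap44 and Cfap65 were all lower at 12M than at 6M, by log2 changes of -0.66 to -0.50.

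**Figure D3:**
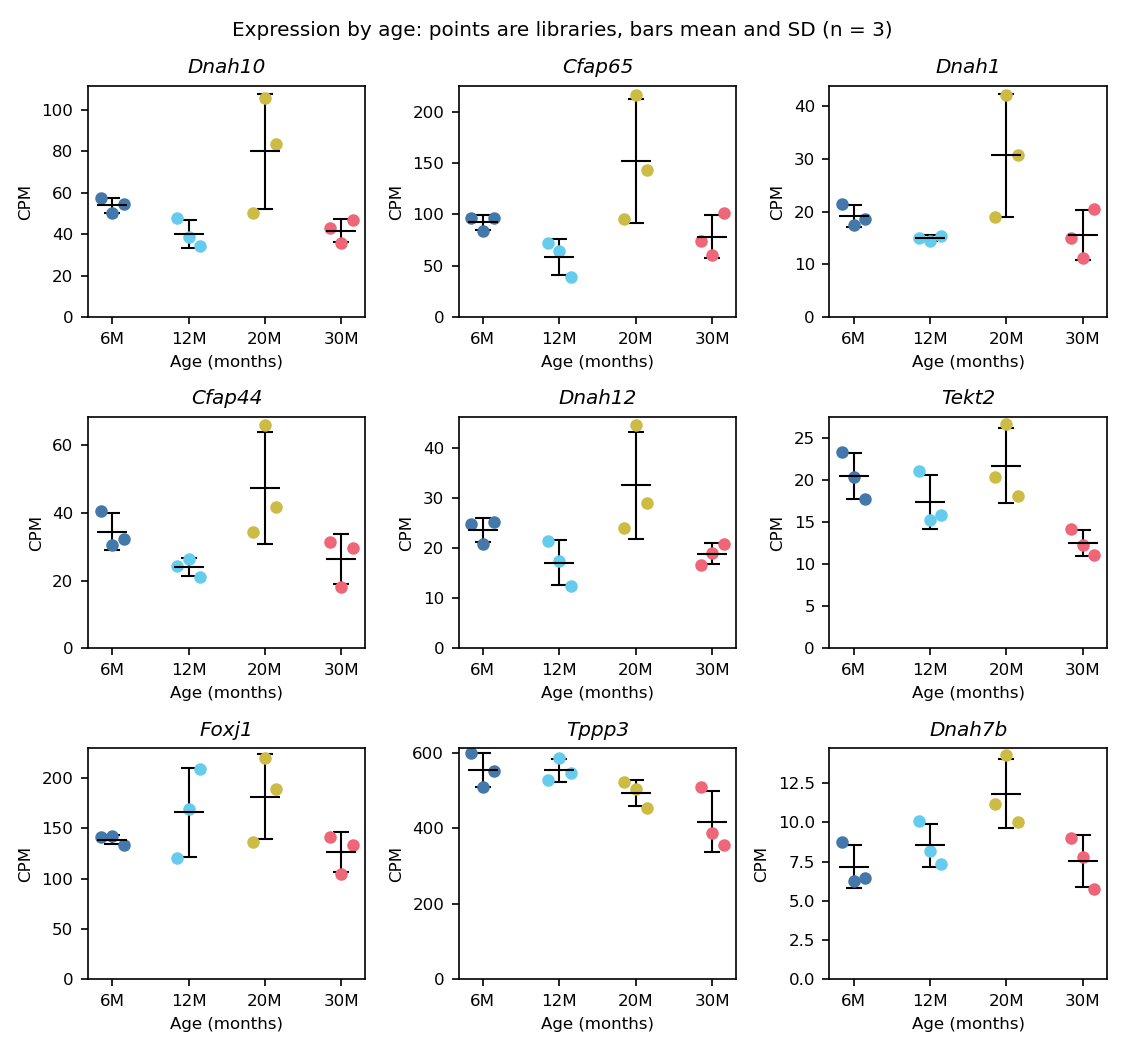
CPM of 9 motile cilium genes by age in months, with 1 point per library and the mean ± SD of 3 libraries as bars. In 8 of the 9 panels, all but Tppp3, the highest point is 20M_221, and the 3 lowest points of Tekt2 are at 30M.

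Foxj1 (ENSMUSG00000034227) lies at chr11:116330704-116335399 on the minus strand. The regulator of the set was at 141, 142 and 133 CPM at 6M, 120, 169 and 209 at 12M, 136, 220 and 189 at 20M, and 142, 104 and 134 at 30M. The ranges of all 4 ages overlapped. The log2 change was -0.13 ± 0.21 at 30M against 6M and 0.39 ± 0.21 at 20M against 6M (SE, adjusted p = 0.905 and 0.646 in edgeR). In 12M_208 Foxj1 was high while Cfap65 and Dnah12 had their lowest values of the 12 libraries.

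The radial spoke head proteins Rsph1, Rsph4a and Rsph9 lay close to 6M at 30M, with log2 changes of -0.20 to -0.16. Rsph9, named for having the lowest correlation with the mean of the members, was at 25.7, 26.5 and 22.1 CPM at 6M, 28.4, 26.6 and 36.3 at 12M, 26.6, 24.8 and 17.6 at 20M, and 29.2, 23.0 and 14.5 at 30M. Its highest library was 12M_208 and its lowest 30M_220, and it was not high at 20M. Rsph4a, in contrast, was at 27.9, 53.0 and 37.7 CPM at 20M against 27.1 to 31.7 at 6M.

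Ccdc39 and Ccdc40 form the ruler that sets the repeat of the axoneme, and Drc1 and Drc7 belong to the nexin-dynein regulatory complex, with Ccdc113 near the base of the spokes. Of these 5, 4 had a log2 change below 0 at 30M against 6M, with a median of -0.28, and Drc7 was at 0.05. Ccdc39 and Ccdc40, partners in 1 complex, parted in 12M_208: Ccdc39 was at 16.6 CPM there against 46.9 to 57.7 at 6M, and Ccdc40 at 55.2 against 32.0 to 42.2. This pair was picked after its values were seen. An exon of Ttc14 overlaps Ccdc39 on the other strand. Ccdc39 has the lowest GC content of the members, 39.9%, and Ccdc40 has 54.6%. Levels in 12M_208 followed GC content over all tested genes (Spearman rho 0.23), and the part of GC content in this difference was not tested. At 12M against 6M the log2 change of Ccdc39 was -0.78 ± 0.31 (SE, adjusted p = 0.988 in edgeR).

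The central apparatus is represented by Hydin, Spag16, Spag17, Spef2 and Cfap54, and all 5 were lower at 30M than at 6M, with a median log2 change of -0.33 and none past the adjusted test. At 30M against 20M all 5 were lower at an unadjusted p under 0.05 in edgeR, as were 27 of all 34 members (3.75% of all genes). Hydin was the widest of them at 20M, with 20.6, 56.9 and 45.1 CPM against 20.1 to 27.0 at 6M. The dynein assembly factors Dnaaf1 and Dnaaf3, which work in the cytoplasm before the arms are docked, had log2 changes of -0.13 and -0.19 at 30M against 6M.

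At 12M the members did not move 1 way. Against 6M, 19 of 34 had a log2 change below 0 (47.1% of all tested genes), with a median of -0.06. In 8 every 12M library was below every 6M library (5.81% of all genes) and in 4 it was above (6.3%). The 4 that were above, Tekt1, Rsph1, Rsph9 and Ccdc113, are the 4 shortest transcripts of the set, which was noticed after their values were seen. edgeR, DESeq2 and limma voom each called 0 members (edgeR called no gene and DESeq2 0.049% of all genes), and 4 had an unadjusted p under 0.05 in edgeR, all lower (1.65% of all genes). At 30M against 12M, 23 were lower (49.7% of all genes) and 11 higher, with a median of -0.20 on the log2 scale. All 3 tools called 0 (edgeR called 0.712%, voom 1.02% and DESeq2 2.75% of all genes), and 8 had an unadjusted p under 0.05 in edgeR, all lower (3.8% of all genes). In 7 members every 30M library was below every 12M library (5.74% of all genes), namely Tppp3, Tekt1, Tekt2, Rsph1, Ccdc113, Dnah5 and Dnah7a.

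The 3 libraries at 20M were not alike. The median over the members of log2 CPM minus the 6M mean was 0.01 in 20M_213, 0.68 in 20M_221 and 0.25 in 20M_222, and 20M_221 was the highest of the 12 libraries for 29 of 34 members (9.44% of all tested genes). At 30M the medians were -0.13, -0.53 and -0.18 in 30M_216, 30M_218 and 30M_220, and at 12M they were -0.13, -0.18 and -0.03. The 6M libraries were at 0.10, -0.12 and 0.01. Without 20M_221 the median change at 20M against 6M was 0.12, with 23 members higher. The widest spread over members was in 12M_208, with an SD of 0.56 and values from -1.67 to 0.68. The 6M libraries had SDs of 0.10 to 0.13, but they are measured against a mean that contains them. This narrows their spread, so their SDs cannot be set against those of other ages.

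In 3 libraries, 20M_221, 20M_222 and 30M_220, log2 CPM minus the 6M mean followed gene GC content over all tested genes, with Spearman rho of 0.36, 0.46 and 0.33, and in 12M_208 it was 0.23 (the other libraries gave -0.09 to 0.05). 20M_222 also held skeletal muscle transcripts, whose summed level was 3869.5 CPM there and 13.3 to 48.8 CPM in the other 11 libraries. Over the 34 members alone, 12M_208 had a rho with GC content of 0.38. For the same measure 20M_221 had -0.21, 20M_222 had -0.021 and 30M_220 had -0.0057. The other libraries ranged from -0.24 (6M_203) to 0.41 (6M_202). Exon length and GC content had a Spearman rho of -0.43 with each other over the members, so these values are not independent of length. With each library's trend in length and GC removed, an alternative added after the data were seen, the median in 20M_221 was 0.72 and it was the highest library for 27 members. Without 20M_221, 20M_222 and 30M_220 the median at 20M against 6M was -0.00712 with 16 members higher, from 1 library at 20M. The median at 30M against 6M was then -0.35, and 31 members were lower.

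Transcript length separated the members within those libraries. Their exon length had a median of 7630 bases, against 3702 for all tested genes, and 13 of the 34 (38.2%) exceeded 10000 bases against 7.71% of tested genes. In 20M_221 the median over the 13 members under 4000 bases was 0.38 and over the 21 longer ones 0.78. In 20M_222 these were -0.17 and 0.29, and in 30M_220 they were -0.43 and -0.17. The order was the other way in 30M_218, at -0.34 and -0.59, in 30M_216, at -0.023 and -0.29, and in 20M_213, at 0.09 and 0.0020. It was also the other way in all 3 libraries at 12M, with the widest gap in 12M_208, at 0.17 and -0.30. The boundary of 4000 bases was chosen after the values were seen. Over the members Spearman rho with exon length was 0.63 in 20M_221, 0.53 in 20M_222 and 0.34 in 30M_220, and -0.40 to 0.27 in the other libraries, while over all tested genes rho with length was -0.18 to 0.05. These points share a library and, in dyneins, long related sequences. The part of transcript length, GC content and library in the differences between ages was not tested beyond the fits given here.

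**Figure D4:**
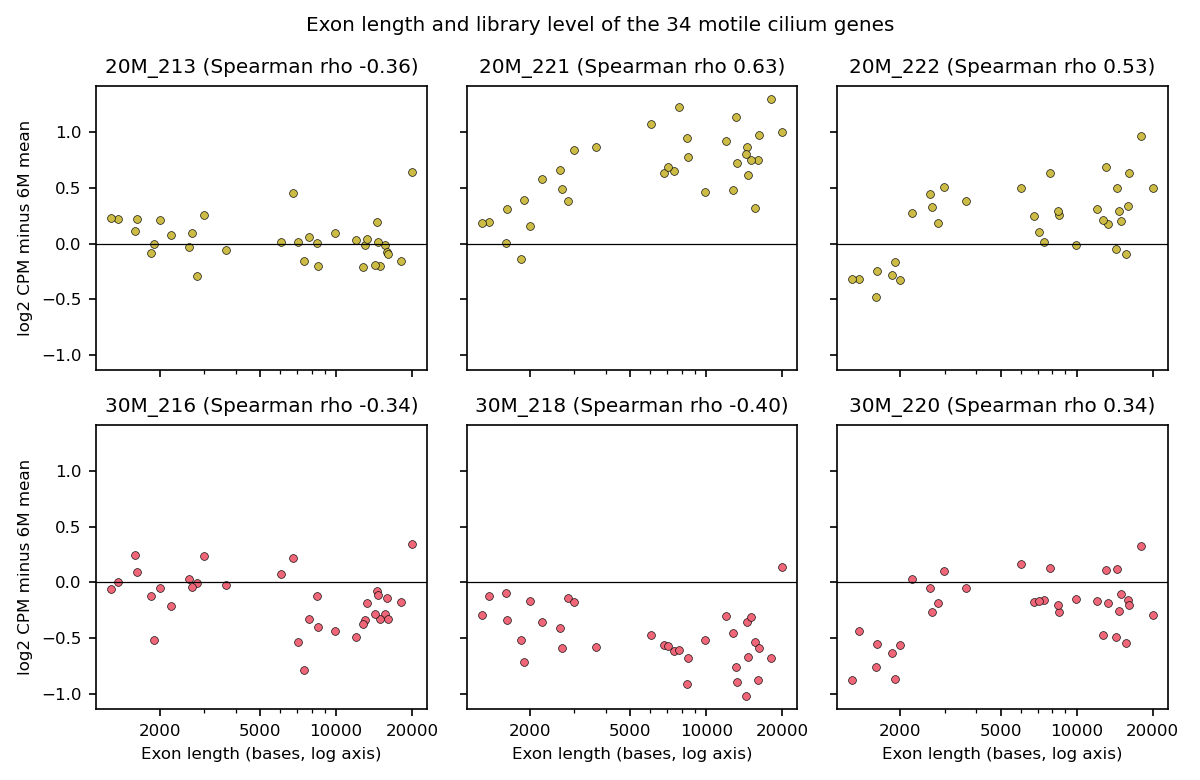
Log2 CPM minus the 6M mean (vertical axis) against exon length on a log axis (horizontal) for the 34 genes in each 20M (upper row) and 30M (lower row) library. Points are higher to the right in 20M_221 and 20M_222, where rho is 0.63 and 0.53, and not in 20M_213 or 30M_218.

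The members followed their mean to different degrees. The correlation (Pearson r) of each member with the mean log2 CPM of all members over the 12 libraries had a median of 0.81, against 0.02 over all tested genes, where the mean contains each member itself. It was highest for Spag17 at 0.96, with Dnah3 at 0.93 and Dnah6 at 0.93. It was lowest for Rsph9 at -0.01, Rsph1 at 0.23, Tekt4 at 0.28, Ccdc113 at 0.32 and Tppp3 at 0.34, all of them under 4000 bases. The other members under 4000 bases ran from 0.45 (Tekt1) to 0.92 (Rsph4a), so short members were also among those with a high r. Dnaic1 and Dnaic2 gave 0.70 and 0.84.

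Among 17005 genes outside the set with at least 1 CPM, the 5 most like the mean of the members were Wdr66 (r = 0.98), Ccdc162 (0.96), Eno4 (0.95), Ttc12 (0.95) and Frmpd2 (0.94). Their Spearman rho was 0.97, 0.85, 0.82, 0.90 and 0.89. Without 20M_221 and 30M_218, the libraries farthest from the median of the member mean, r was 0.90, 0.83, 0.77, 0.84 and 0.77. Of the 50 most alike, a number chosen after the values were seen, 15 are on the lists of other cilium genes described next.

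Other genes of the motile cilium, listed by role, were lower at 30M than at 6M in most cases, and edgeR called none of them in any comparison. At an unadjusted p under 0.05 in edgeR the counts of the 7 lists at 30M against 6M ran from 0 to 6. The 0 was among 38 intraflagellar transport and BBSome genes, the 6 among 36 microtubule inner and axonemal surface genes. Over all tested genes 3.57% were under 0.05 and lower, and 49.5% had a log2 change below 0. Of other dynein arm and docking genes, 16 of 20 tested were lower (median -0.26 on the log2 scale), with the smallest p for Ccdc151 (-0.52 ± 0.15 SE, adjusted p = 0.1101 in edgeR), Dnal1 and Nme9. Ccdc151, which docks the outer arm, was at 18.0, 16.7 and 18.3 CPM at 6M and 12.4, 13.0 and 11.6 at 30M, with no overlap. Of other dynein assembly genes, 10 of 13 were lower (median -0.22), led by Cfap300, Spag1 and Dnaaf4. Among other radial spoke, central pair and regulatory complex genes 30 of 32 were lower (median -0.22). Lrrc23, a spoke protein, was at 73.7, 75.4 and 75.9 CPM at 6M and 53.9, 52.2 and 49.4 at 30M (adjusted p = 0.181 in edgeR), and Rsph3b and Cfap69 followed.

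Of other microtubule inner and axonemal surface genes, 33 of 36 were lower (median -0.29), led by Enkur and Mns1. Of other multiciliated cell genes, 35 of 40 were lower (median -0.28), led by Lrrc36, Ccdc78 and Gm867. Regulators of multiciliation and basal bodies were lower in 19 of 23 (median -0.20), led by Cep63, Ccdc78 and Ccp110. Intraflagellar transport and BBSome genes, which also serve immotile cilia of other cell types, were lower in 36 of 38 (median -0.19), with the smallest p for Ttc8 (-0.40), Ift46 (0.28, higher) and Ift81 (-0.29). At 20M against 6M the same lists had medians from -0.01 for intraflagellar transport to 0.25 for spoke and central pair genes, and in 20M_221 from 0.09 to 0.52. The list medians ran from -0.03 to 0.15 in 20M_213. In 20M_222 they ran from -0.14 to 0.10, where the median of the members was 0.25.

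**Figure D5:**
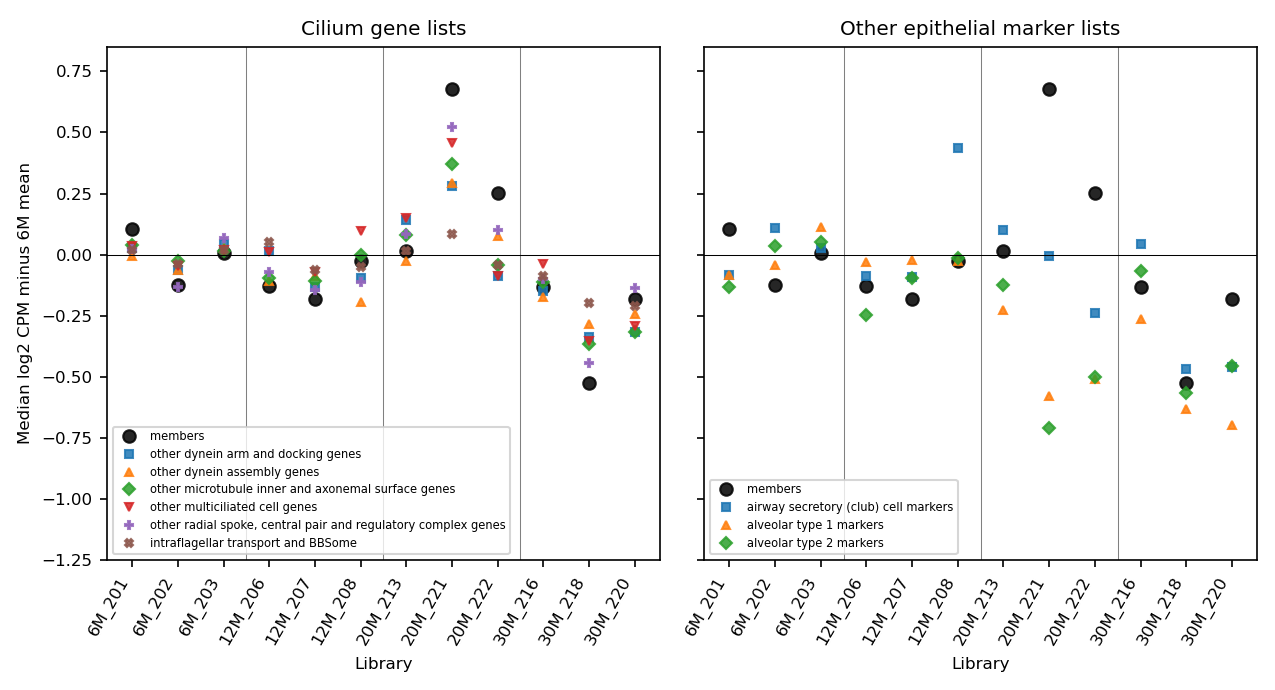
Median over each list of log2 CPM minus the 6M mean (vertical axis) in the 12 libraries (horizontal axis), for the members and other cilium lists (left) and for other epithelial marker lists (right). Cilium lists are highest in 20M_221 and mostly lowest in 30M_218 and 30M_220, and alveolar markers are low in 20M_221.

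Values of other epithelial markers are given beside those of the members. All 16 tested markers of the airway secretory (club) cell had log2 changes below 0 at 30M against 6M (49.5% of all tested genes). The list median was -0.24, with 0 called in edgeR (1.96% of all genes) and 1 at an unadjusted p under 0.05 (3.57%, lower). The summed level of the club cell markers was 43497 to 52188 CPM at 6M and 32489 to 52586 at 30M. Most of that sum was 1 gene, Scgb1a1, at 33340 to 41048 CPM at 6M and 23814 to 41459 at 30M. Scgb1a1, the main club cell secretoglobin, had a log2 change of -0.15 ± 0.26 (SE, adjusted p = 0.915 in edgeR). All 8 alveolar type 1 and all 9 alveolar type 2 markers were also lower at 30M, with medians of -0.51 and -0.37, 0 called and 6 and 3 at an unadjusted p under 0.05. Alveolar type 1 markers summed to 8066 to 9281 CPM at 6M and 5340.0 to 7171 at 30M, and type 2 markers to 31416 to 36442 and 19279 to 32841. Most of the type 2 sum was Sftpc, at 20109 to 23511 CPM at 6M and 10377 to 20985 at 30M. In 20M_221, where the members were highest, the alveolar type 1 and type 2 medians were -0.58 and -0.71 and the club cell median was -0.00731. The part of these other cell types in the members' values was not tested.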

How the data were processed

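Gene expression was measured in 12 whole-lung libraries, 3 at each of 4 ages. The authors deposited whole-number read counts per gene, with no normalization. Per the submitters' processing notes, reads were handled with FastQC 0.11.7, Trimmomatic 0.38, HISAT2 2.1.0 and featureCounts on GRCm38 (mm10). The sources used here give neither the annotation release nor the strand setting. Exons of other genes overlap 15 of the 34 members, on the other strand in 14, and these counts are uncertain. Exon length and GC content came from GENCODE M21, where 33 of the 34 have the table's coordinates.

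The counts were tested in R 4.3.3 with edgeR 4.0.16 (quasi-likelihood, robust, TMM, filterByExpr by age), all 12 libraries in 1 fit, with Benjamini-Hochberg adjustment over 18407 genes. Levels are CPM with TMM, on the log2 scale with a prior count of 2. The SE of a log2 change is its size over the root of F. The common biological coefficient of variation was 0.236.

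Comparisons were the 6 pairs of ages, a joint test and a slope per month. Named in full are the 6 members with the smallest joint p, Foxj1, and the members with the highest and lowest level per kb. Also named are Scgb1a1, Acta1 and Sftpc, 3 genes with the smallest p per list, and 5 genes most like the member mean. Dnah3, Dnah5, Ccdc39, Ccdc40, Hydin, Rsph4a, Rsph9 and Scgb3a1 were added after their values were seen. One gene that this rule names is not reported here. Members and lists were chosen with earlier results of these data known. Alternatives were DESeq2 1.42.0, limma 3.58.1 voom with quality weights, other scaling and filters, other sets of libraries, a GC-library term and, added later, removal of length and GC trends. The test was tested on simulated counts.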

Additional observations from a re-analysis of the deposited data

How the results depend on the processing

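Across the alternatives, most values kept their direction and their side of the threshold. No member was called by edgeR with other scaling or the stricter count filter. With DESeq2 the number of members called was 1 at 30M against 6M (4.1% of all genes) and 1 at 20M against 12M (0.0623%). It was 4 at 30M against 20M (1.84%), 6 in the joint test (4.29%) and 1 on the slope (4.91%). With limma voom and quality weights it was 10 at 20M against 6M (4.22%), 3 at 30M against 20M (1.15%) and 23 in the joint test (9.01%). With no count filter the joint test called 1. Leaving out each library in turn, the calls ran from 0 to 1 at 30M against 20M and from 0 to 3 in the joint test, where the highest values came without 20M_213. The share of all genes called was not recorded for edgeR with other scaling, filters or sets of libraries. Members lower at 30M against 6M ran from 28 to 34, and members higher at 20M against 6M from 23 (without 20M_221) to 33. Without the 3 libraries with a GC trend 16 members were higher at 20M against 6M, with a median of -0.00712. The cause of these differences was not tested.

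The log2 change of Foxj1 at 20M against 12M, 0.13 in the fit reported, was -0.13 with a term for the 3 GC-trend libraries, -0.068 with trends removed and -0.29 without those 3 libraries. Leaving out each library it ran from -0.060 (without 12M_206) to 0.32, with -0.033 without 20M_221. That of Dnah7b at 30M against 6M, 0.07 as reported, ran from -0.089 (without 30M_216) to 0.24, with -0.020 without 6M_202 and -0.00153 without 6M_203. The share of member promoters with the motif was 46.2% for GTTGCC and 23.1% for GTTGCCA. No paired analysis was possible because each replicate number belongs to 1 age only. Every member had 66 or more counts in every library. The error was not split into counting depth and spread between libraries.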

Other observations

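Secretory and rare epithelial cells gave values that stand beside those of the cilium. Of 12 tested goblet and submucosal gland markers, 8 had log2 changes below 0 at 30M against 6M (49.5% of all tested genes), with a median of -0.21. In edgeR 1 passed the test on the slope over months (2.68% of all genes). This was Scgb3a1, a secretoglobin of the upper airway, named after its value was seen. It was at 264, 346 and 392 CPM at 6M, 250, 280 and 339 at 12M, 224, 86.3 and 137 at 20M, and 171, 140 and 163 at 30M. The slope was -0.0503 log2 per month (adjusted p = 0.0369 in edgeR), and every 30M library was below every 6M library (8.66% of all genes). Dmbt1 (2.37 on the log2 scale) and Bpifb1 (-0.75) were the other genes of that list with the smallest p at 30M against 6M. The mean level of Dmbt1 was low, 0.53 CPM at 6M and 2.77 at 30M. Among 7 tested neuroendocrine and tuft cell markers 5 were lower. Calca, a peptide gene of neuroendocrine cells, had a log2 change of -1.16 ± 0.32 (SE, adjusted p = 0.0925 in edgeR). The mean level of Calca was low, 2.08 CPM at 6M and 0.92 at 30M.

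Club cell markers with the smallest p at 30M against 6M were Aldh1a7, Scgb3a2 and Gabrp, those of alveolar type 1 cells Akap5, Rtkn2 and Hopx, and those of type 2 cells Lamp3, Sftpd and Sftpa1. Sftpc, the most abundant of the latter, had a log2 change of -0.38 ± 0.29 (SE). Of 8 basal cell markers 4 were lower at 30M. The smallest p were those of Ngfr (1.06 on the log2 scale), Dapl1 (-1.52) and Aqp3 (0.80). Mean levels of these genes were low, from 0.52 to 2.30 CPM at 6M and from 0.48 to 4.01 at 30M. The median of the basal list was 3.22 above 6M in 20M_222. Of 8 mesothelial markers 1 was lower, and Msln, the first of the list with Upk1b and Lrrn4, was at 549 CPM in 30M_218 against 151 and 80.4 in the other 30M libraries. Of the skeletal muscle markers, 7 were tested and all had log2 changes above 0 at 30M (median 0.44). Acta1 was at 1039 CPM in 20M_222 and at 0 to 2.13 in the other 11 libraries, and Tnni2 and Ckm were also highest in 20M_222. edgeR called none of these markers in any pair of ages.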
